A study of Mus musculus with 14 samples.

Results

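The 40 genes described here encode the voltage-gated sodium and calcium channels of the mouse. They were chosen by symbol alone, as every Scn gene with a number and the letter a or b and every Cacn gene of the α1, α2δ, β and γ series, and they are 40 of the 52459 gene symbols measured. Of these, 14 are sodium channel genes (10 pore-forming Nav α subunits and 4 Nav β subunits) and 26 are calcium channel genes (10 pore-forming α1 subunits in the Cav1, Cav2 and Cav3 families, 4 α2δ, 4 β and 8 γ subunits). They were measured by RNA-seq in 14 libraries of primary cortical neurons taken from E16.5 mouse embryos. The mice carried BRG1, the motor subunit of the BAF (SWI/SNF) chromatin remodeller, either unchanged or with serine 1382 replaced. In the knock-in called SA an alanine takes that place, which cannot be phosphorylated, and in SE a glutamate does, whose charge resembles a phosphate. The SA line had 8 libraries: 2 basal and 2 KCl libraries of SA, and 2 basal and 2 KCl libraries of its wild-type littermates. The SE line had 6: 2 basal and 2 KCl libraries of SE, and 1 basal and 1 KCl library of its wild-type littermates. KCl libraries came from cultures depolarised with 50 mM KCl for 1 h on day 6 in vitro, after 1 µM tetrodotoxin and 100 µM APV had been added on day 5 to stop spontaneous firing. The protocol does not say whether the basal cultures also had both blockers. The labels do not say that libraries of a group came from separate embryos or cultures, so the p-values measure only the spread between these libraries.

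Voltage-gated sodium channels open when the membrane depolarises and carry the rising phase of the action potential; a Nav α subunit forms the pore, and β subunits tune its gating and its place in the membrane. Voltage-gated calcium channels turn depolarisation into calcium entry: Cav1 (L-type) channels signal from the cell body and dendrites to the nucleus, Cav2 channels trigger transmitter release, and low-threshold Cav3 (T-type) channels shape burst firing, while α2δ and β subunits carry the pore to the surface. Several γ subunits, among them Cacng2, Cacng3, Cacng4, Cacng7 and Cacng8, are better known in cortex as auxiliary subunits of AMPA-type glutamate receptors than of calcium channels.

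Each library held between 22625916 and 23096206 estimated counts. Markers of neurons were present throughout, with 6 pan-neuronal genes (such as Tubb3 and Map2) summing to between 2673 and 4394 TPM (a transcript level corrected for length and scaled to a fixed total per library). The cultures also held RNA typical of other cells, and more of it in the SA line: 6 neural progenitor markers summed to between 746 and 2952 TPM there and to between 220 and 298 TPM in the SE line. In these bulk samples fewer cells of a type and less RNA per cell cannot be told apart. Depolarisation reached every group: Fos, Npas4, Arc, Nr4a1 and Egr1, which neurons induce within minutes of calcium entry, all 5 rose after KCl in edgeR, and Fos went from between 4.96 and 9.68 TPM in basal libraries to between 335 and 444 TPM in the SA line and between 921 and 1116 TPM in the SE line after KCl. The rise itself was larger in the SE line for Arc, Egr1 and Nr4a1, by 2.01, 1.83 and 1.17 on the log2 scale (edgeR adjusted p = 0.00499, 0.00302 and 0.0283), while the difference for Fos was 1.60 (adjusted p = 0.0838) and that for Npas4 was -0.02 (adjusted p = 1).

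Tetrodotoxin plugs the outer mouth of the sodium channel, and its grip depends on 1 residue of the pore loop in the α subunit's domain I: an aromatic residue there gives a tight block, and a serine a weak block. Because the cultures were silenced with this toxin, that codon was read in each Nav α gene from its most abundant coding transcript in GENCODE M21 (GRCm38), as the codon lying between those for glutamine and aspartate on its 5′ side and those for tryptophan and glutamate on its 3′ side. The windows below are coding strand, 5′ to 3′, with that codon in capitals, and show the 3 most abundant genes of the aromatic class beside 2 genes with a serine codon.
Scn2a: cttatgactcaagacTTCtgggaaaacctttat
Scn8a: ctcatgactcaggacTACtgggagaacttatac
Scn3a: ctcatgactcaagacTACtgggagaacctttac
Scn10a: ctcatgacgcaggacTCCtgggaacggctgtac
Scn11a: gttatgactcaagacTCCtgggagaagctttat
The codon lies in exon 9 of Scn2a at chr2:65688436-65688438 on the + strand and in exon 8 of Scn8a at chr15:100971638-100971640 on the + strand. It encodes phenylalanine in Scn2a and Scn1a, tyrosine in Scn3a, Scn4a, Scn8a and Scn9a, and serine in Scn10a and Scn11a. Scn7a had no such pattern; its product, Nax, is known as a sodium-sensing channel.

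The 6 genes with an aromatic codon held between 95.8% and 99% of all Nav α TPM in the 14 libraries, with a median of 98.6%. Scn2a, the main axonal sodium channel of young excitatory neurons, held between 41.5% and 50.9% of Nav α TPM. Scn8a, which takes over at the axon initial segment as neurons mature, held between 21.9% and 31.1%, and Scn3a, the channel typical of embryonic brain, between 17.6% and 24.6%. Scn1a, the channel of fast-spiking inhibitory neurons, held between 3.97% and 6.06% in the 8 libraries of the SA line and between 1.94% and 2.38% in the 6 of the SE line, with no overlap; summed markers of GABAergic neurons were between 312 and 433 TPM in the SA line and between 90.7 and 152 TPM in the SE line, and their part in the Scn1a share was not tested. Of the genes with a serine codon, both known from sensory neurons, Scn10a held between 0.013% and 0.182% of Nav α TPM and Scn11a between 0.0626% and 0.515%. Counting only protein-coding transcripts, the aromatic class held between 95% and 98.9%.

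By level the 40 genes spanned from 0 TPM to 167 TPM. Scn2a was the highest Nav α gene, at 18.5 to 43.9 TPM with a median of 34.2, ahead of Scn8a with a median of 18.7 TPM and Scn3a with 14.8 TPM; the ranges of Scn8a (9.77 to 22.3 TPM) and Scn3a (9.7 to 19.6 TPM) overlapped. Among Nav β genes Scn3b led at 66.2 to 96.8 TPM, above the highest Nav α value in every library. Scn4a, the skeletal muscle channel, and Scn10a did not reach the count level needed for testing.

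Of the calcium channel pores, Cacna1a (P/Q-type, transmitter release) had the highest median at 45.2 TPM and a range of 18.9 to 57.2 TPM, followed by Cacna1b (N-type) at 28 TPM and the T-type gene Cacna1g at 24.8 TPM (6.99 to 52.1 TPM). The order depends on which transcripts are counted. Only 41.1% of the Cacna1a TPM came from protein-coding transcripts, and a median of 49% came from a 549-base transcript annotated as noncoding, to which a median of 4.42% of the gene's counts was assigned. On protein-coding TPM Cacna1a had a median of 18 TPM and moved from rank 6 to rank 13 of the 40 genes. The same held for Cacna1g, with 47.6% of its TPM from protein-coding transcripts, and for Cacna1d, the highest L-type gene on total TPM with a median of 13.8, at 32.1%. On protein-coding TPM the other L-type gene of brain, Cacna1c, was higher, with a median of 10.5 TPM against 4.23 TPM for Cacna1d. A retained-intron transcript of Cacna1d held a median of 42.2% of its TPM and 34.1% of its counts. Over all 40 genes, protein-coding transcripts held between 88.8% and 93.3% of TPM.

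The 4 highest medians, Scn3b included, belonged to auxiliary subunits. Cacng4 had the highest median of all, 107 TPM (80.7 to 138), then Cacng7 with 95.8 TPM (84.4 to 167) and Cacnb3, the most abundant β subunit, with 89.4 TPM (66.9 to 140). The ranges of these 3 genes overlapped. Cacna2d1, an α2δ subunit that binds gabapentin, led its family at 29.7 TPM (15.9 to 59). The muscle and retina genes Cacna1s and Cacna1f and the muscle γ gene Cacng1 stayed at or below 17 counts in each library, and Scn4a and Scn10a at or below 10 counts; these 5 genes were not tested, which left 35.

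**Figure D1:**
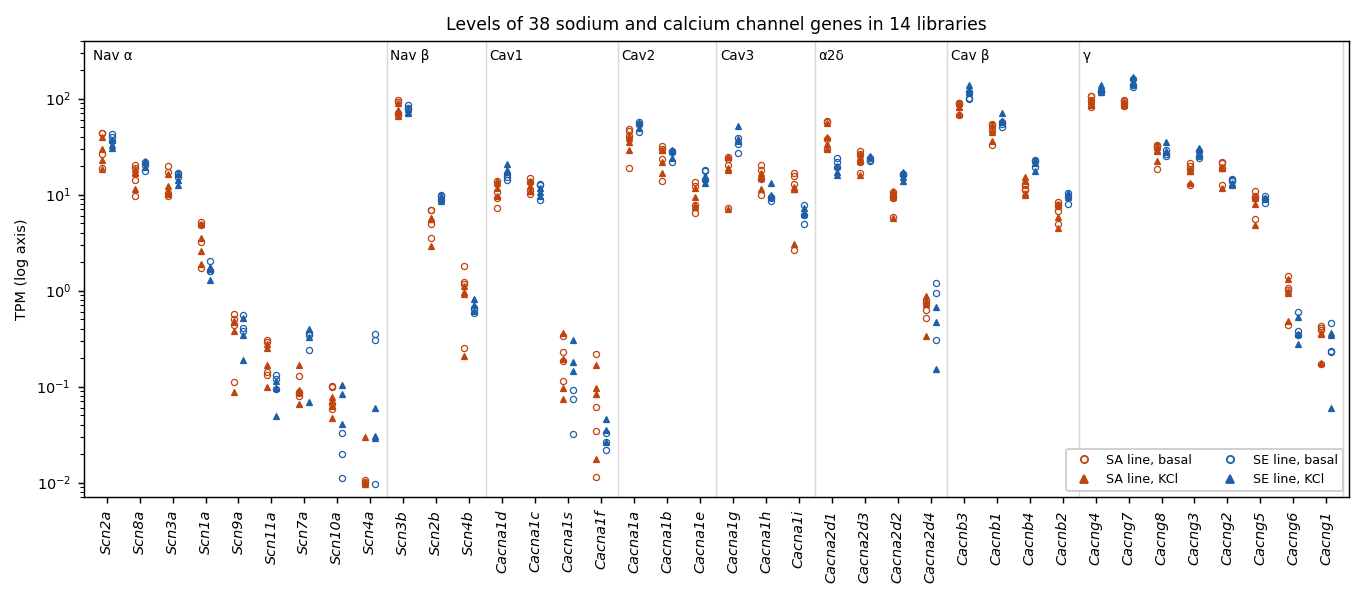
Level of 38 of the 40 genes in the 14 libraries (TPM on a log axis; values at 0 are not drawn), by family and in order of median within it; circles are basal and triangles KCl libraries, red the SA line and blue the SE line. Basal and KCl points of a line lie on top of each other for most genes, Scn2a leads the Nav α family at 18.5 to 43.9 TPM, and Cacng7 separates the lines.

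Depolarisation for 1 h left the channel genes near their basal levels. With 7 KCl and 7 basal libraries, edgeR's quasi-likelihood test called 0 of the 35 channel genes at an adjusted p under 0.05, against 4.82% of all 17732 genes tested; DESeq2 and limma on log2(TPM + 1) also called 0, and 1 channel gene had an unadjusted p under 0.05. The median log2 change of the 35 genes was -0.02, beside 0.0086 for all genes, and 16 values were positive and 19 negative. For 33 of the 35 the 95% interval lay within a 2-fold change either way. By family the median log2 change was -0.14 for Nav α, -0.10 for Nav β, 0.13 for Cav1, -0.09 for Cav2, 0.06 for Cav3, -0.07 for α2δ, 0.08 for β and 0.01 for γ. None of the 35 genes separated KCl from basal libraries without overlap, beside 1.78% of all genes tested.

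The gene with the lowest p was Cacna1d, whose L-type channel opens at low voltages. Its basal values ran from 7.16 to 16.4 TPM with a median of 14, and its KCl values from 9.62 to 21 TPM with a median of 13.7. The 2 sets overlapped widely. Within a group the KCl values were 11.6 and 13.1 TPM against 9.2 and 10.6 TPM in SA, and 18 and 21 TPM against 14.3 and 15.1 TPM in SE, without overlap in either, while the wild type of the SA line overlapped (9.62 and 13.7 against 7.16 and 14 TPM). The log2 change over all cultures was 0.29 ± 0.128 (standard error, as after each ± here), with an adjusted p of 0.354 in edgeR. Cacnb3 was next, with a log2 change of 0.11 and an adjusted p of 0.721, from a basal median of 89.5 TPM (66.9 to 117) to a KCl median of 89.4 TPM (68.4 to 140). Scn2a, the most abundant pore the toxin blocks, had a basal median of 40.2 TPM (19 to 43.9) and a KCl median of 30.6 TPM (18.5 to 39.4), and its log2 change of -0.23 ± 0.239 did not pass (adjusted p = 0.848). The count depends on the model: with replicate number added as a block, 3 of the 35 genes were called, beside 13.1% of all genes, Cacna1d being higher and Scn2a and Cacna2d1 lower after KCl (edgeR adjusted p = 0.00104, 0.0189 and 0.0217). The labels do not say that equal numbers mark a shared culture.

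Without the block, single genotypes gave no call either. In wild type 0 of 35 channel genes were called (1.41% of all genes), in SA 0 (0.846% of all genes) and in SE 0 (1.66% of all genes), each by edgeR, with 0 at an unadjusted p under 0.05 and 0 by DESeq2 or limma. The lowest p belonged to Cacna1d (log2 0.21) and Cacng7 (0.09) in wild type, to Cacna1d (0.34) and Cacna2d1 (-0.32) in SA, and to Cacnb3 (0.25) and Cacna1d (0.36) in SE. With the replicate block 2 genes were called in SE, Cacna1d and Cacna1h (adjusted p = 0.0364 and 0.0475), beside 5.77% of all genes. Precision was lower in single genotypes, where log2 changes ran from -0.39 to 0.25 in wild type, -0.37 to 0.34 in SA and -0.63 to 0.39 in SE: the 95% interval lay within 2-fold for 27 of 35 genes in wild type, 22 in SA and 20 in SE.

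**Figure D2:**
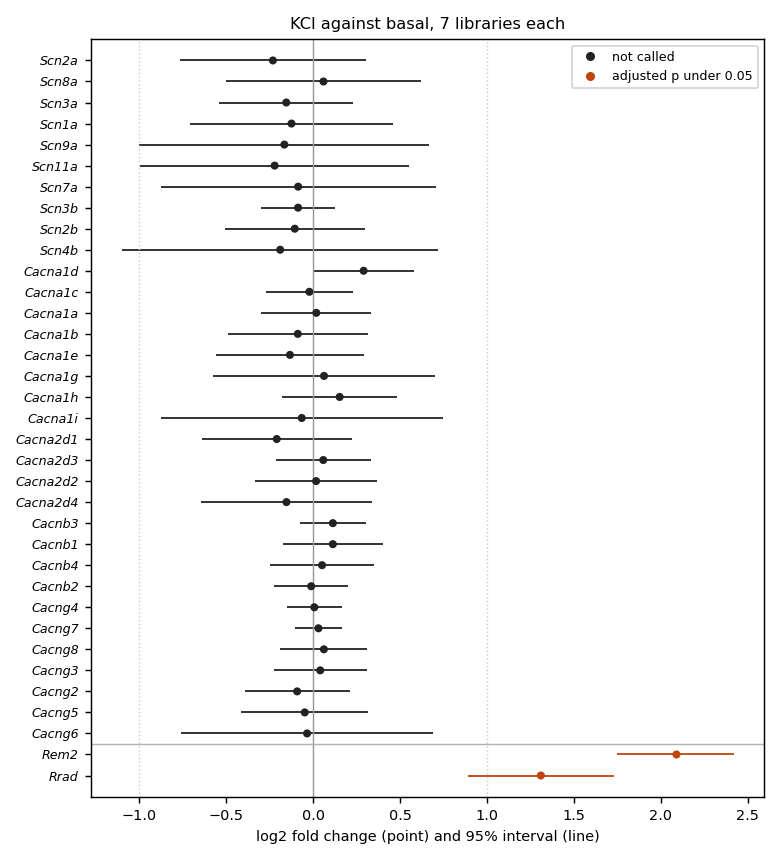
Change after 1 h of KCl over all cultures for 33 of the 35 channel genes tested and, under the line, the calcium channel regulators Rem2 and Rrad (points, log2 fold change; bars, 95% interval; dotted lines, 2-fold either way; red, adjusted p under 0.05). The channel genes lie between -0.23 and 0.29, while Rem2 lies at 2.09 and Rrad at 1.31.

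Proteins that work with the channels were covered by a list of 25 tested genes for calcium channels and calcium release, such as RGK GTPases, release-site scaffolds and store channels. KCl called 2 of the 25 (beside 4.82% of all genes), both higher, and both of the RGK family, small GTPases that bind the β subunit and lower calcium current. Rem2 was between 2.69 and 4.77 TPM in basal libraries, with a median of 3.34, and between 8.96 and 22.4 TPM after KCl, with a median of 16.2, so no KCl library reached down to a basal one. Its log2 change was 2.09 ± 0.15, with an adjusted p of 2.65e-05. Rem2 also rose in wild type (2.20), SA (1.69) and SE (2.32), with adjusted p of 0.000907, 0.024 and 0.00203 in edgeR. Rem2 lost its SA call in 5 of 10 alternatives, among them every fit that left out 1 SA library. Its response did not differ detectably between SA and wild type (difference -0.24, 95% interval -1.11 to 0.63) or between SE and wild type (-0.41, -1.47 to 0.65).

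Rrad was between 0.416 and 0.899 TPM at basal and between 1.05 and 1.75 TPM after KCl, again without overlap, and rose over all cultures by 1.31 ± 0.187 on the log2 scale (adjusted p = 0.00263). Within single genotypes Rrad did not pass, with adjusted p of 0.0856 in wild type, 0.272 in SA and 0.0971 in SE. Another RGK gene on the list, Gem, had a log2 change of 0.87 with an adjusted p of 0.0632. The median of the list was 0.03. Of 15 tested partners of sodium channels, such as ankyrins, fibroblast growth factor homologous factors and subunits of the NALCN leak channel, edgeR called 0 after KCl, and the lowest p were those of Sptbn4 (log2 0.32, adjusted p = 0.524) and Cntnap2 (-0.14, adjusted p = 0.77).

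BRG1 genotype gave no call among the channel genes. SA against its wild-type littermates was called by edgeR for 0 of 35 channel genes and 0% of all genes at basal, and for 0 and 0% after KCl; DESeq2 and limma called 0 channel genes, and an unadjusted p under 0.05 was reached by 1 channel gene at basal and 0 after KCl, beside 1279 and 2040 of all genes. Over all genes DESeq2 called 0 at basal and 119 after KCl, and limma 0 at both. The 95% interval lay within 2-fold for 16 of 35 channel genes at basal and 18 after KCl. For the others, differences larger than 2-fold were not excluded. Most differences had the same sign. At basal 31 of the 35 were positive (SA above wild type), with a median log2 difference of 0.33, whereas 50.8% of all genes were positive, with a median of 0.0063. After KCl it was 26 of 35 with a median of 0.33. The lowest p at basal were those of Cacng7, at 94.6 and 97.1 TPM in SA against 84.4 and 89.1 TPM in wild type (log2 0.26, adjusted p = 0.621), and Cacng3, at 18.6 and 21.1 against 12.7 and 19.9 TPM (0.49, adjusted p = 0.621). After KCl they were those of Cacnb3 (0.31, adjusted p = 0.463) and Scn3b (0.33, adjusted p = 0.479).

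The size of that lean depended on which wild-type libraries were kept. The 40 genes summed to 591.3 TPM (basal) and 629.5 TPM (KCl) in the wild-type libraries numbered 1. The sums were 943.4 and 852.7 TPM in the wild-type libraries numbered 2, and between 771.1 and 952.5 TPM in the 4 SA libraries. The 2 wild-type libraries numbered 1 had the highest neural progenitor markers, 2623 and 2952 TPM against 746 to 1592 TPM in the rest of the line. They also had the lowest pan-neuronal markers, 2813 and 2673 TPM. Other marker sums set them apart as well. They were highest in the line for endothelial and mural markers (635 and 766 TPM) and for meningeal fibroblast markers (89.9 and 98.5 TPM). Oligodendrocyte lineage markers were also highest there (441 and 395 TPM), while astrocyte markers were lowest (930 and 877 TPM). Cacna1g was 7.28 and 6.99 TPM in these 2 libraries against 24.8 and 24.7 TPM in the wild-type libraries numbered 2. Leaving out both libraries numbered 1, a choice made after the data were seen, left 1 wild-type library per treatment against 2 of SA. Within each treatment they had the lower channel sum of the 2 wild-type libraries, so their removal was bound to shrink the lean. The median log2 difference between SA and wild type was then 0.039 at basal, with 20 of 35 genes positive. After KCl it was 0.019, with 19 of 35 positive. Leaving out the basal wild-type library numbered 2 instead gave a basal median of 0.79. The part of cell composition in the lean was not tested.

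**Figure D3:**
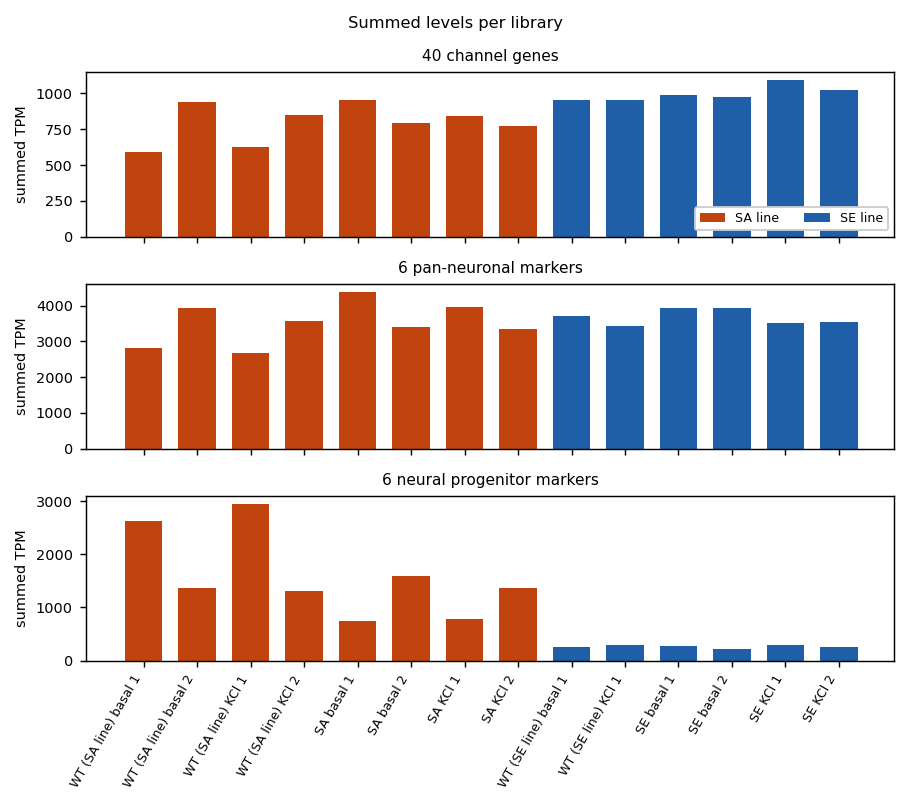
Summed TPM per library of the 40 channel genes (top), 6 pan-neuronal markers (middle) and 6 neural progenitor markers (bottom), red for the SA line and blue for the SE line. The wild-type libraries numbered 1 of the SA line have the lowest channel sums, 591.3 and 629.5 TPM, and the highest progenitor sums, 2623 and 2952 TPM.

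**Figure D4:**
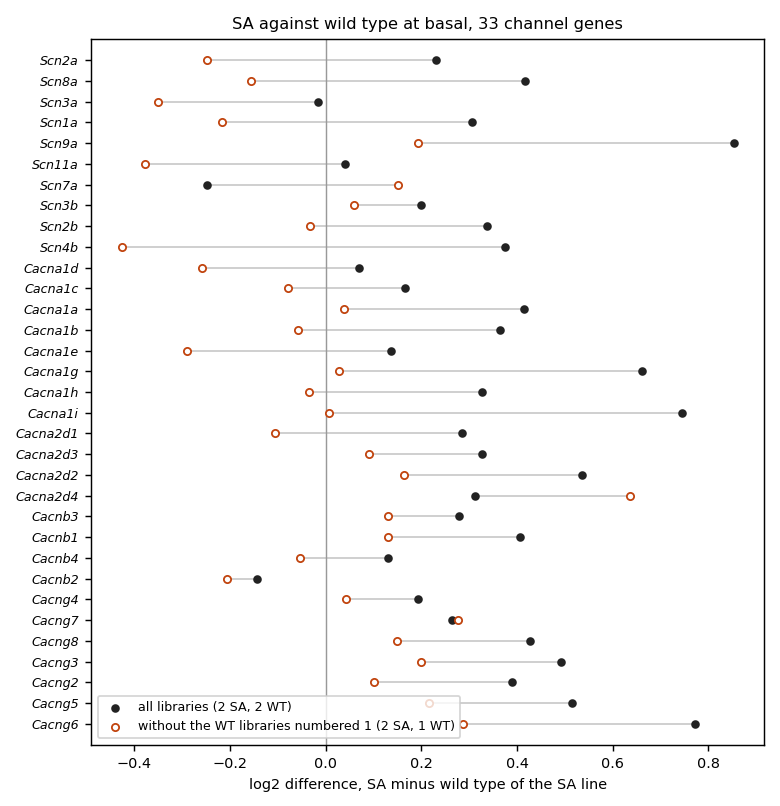
Log2 difference between SA and its wild-type littermates at basal for 33 of the 35 channel genes tested, with all libraries (filled) and without the wild-type libraries numbered 1 (open). The median moves from 0.33 to 0.039.

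SE against its wild type had a single wild-type library on each side. The 95% interval lay within 2-fold for 19 of 35 channel genes at basal and 18 after KCl, so larger differences were not excluded for the others. edgeR called 0 of 35 channel genes and 0% of all genes at basal, and 0 and 0% after KCl, and 0 channel genes had an unadjusted p under 0.05 (187 and 240 of all genes); DESeq2 and limma called 0 channel genes, and at most 2 of all genes. The median log2 difference was 0.00 at basal, with 18 of 35 genes positive, and 0.12 after KCl, with 30 of 35 positive, where 55.2% of all genes were positive. The lowest p at basal belonged to Cacna2d4, an α2δ subunit known from retina, at 0.944 and 0.306 TPM in SE and 1.19 TPM in wild type (log2 -0.57, adjusted p = 1), and to Cacnb2 (0.22, adjusted p = 1). After KCl it was Scn7a, at 0.0698 and 0.328 against 0.401 TPM (-1.01, adjusted p = 1), and Scn9a, at 0.516 and 0.347 against 0.19 TPM (1.13, adjusted p = 1). The SE libraries disagreed with each other in both Cacna2d4 and Scn7a by more than the genotypes differed, on counts of at most 23 and 36 per library.

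The KCl response of the channel genes did not differ detectably by genotype either. The difference in response between SA and wild type was called by edgeR for 0 of 35 channel genes and 0% of all genes, and that between SE and wild type for 0 and 0%; an unadjusted p under 0.05 was reached by 0 channel genes in both (122 and 159 of all genes), and DESeq2 and limma called 0 channel genes, and at most 2 of all genes. The lowest p were those of Cacng7 (-0.17 ± 0.16) and Cacna2d1 (-0.37 ± 0.508) for SA, and Cacna2d4 (0.61 ± 0.721) and Scn9a (1.00 ± 1.22) for SE, all with adjusted p = 1. The 95% interval of the difference lay within 2-fold for 16 of 35 genes for SA and 8 of 35 for SE. For the other genes it reached beyond 2-fold, so even differences in response larger than that were not excluded.

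The larger contrast ran between the lines. At basal, 13 of the 35 channel genes differed between the lines (edgeR, adjusted p under 0.05). The comparison set the 3 libraries of the SE line against the 4 of the SA line. These 13 were 37.1% of the channel genes, beside 47.8% of all genes tested, and the gap between the shares was not tested. Of the 13, 12 were higher in the SE line and 1, Cacna2d1, was lower, beside 3866 higher and 4617 lower among all genes called. Called or not, 25 of the 35 differences were positive, beside 50.2% of all genes. Their median log2 difference was 0.47, beside 0.0030 for all genes. Its size depended on the libraries used, from 0.22 to 0.597 when single libraries were left out. Without both wild-type libraries numbered 1 of the SA line it was 0.227, with 26 of 35 positive. In all, 14 channel genes had no overlap between the lines (40%, beside 49.8% of all genes). By family, the calls took 3 of 4 β genes, 3 of 7 γ genes, 2 of 3 Cav2 genes (Cacna1a and Cacna1e), 1 of 2 Cav1 genes (Cacna1d), 2 of 4 α2δ genes (Cacna2d1 and Cacna2d2), 1 of 4 Nav β genes (Scn2b), 1 of 8 Nav α genes (Scn7a) and 0 of 3 Cav3 genes.

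The lowest p belonged to AMPA receptor auxiliary genes and β subunits. Cacng7 was 133, 140 and 160 TPM in the SE line and 84.4, 89.1, 97.1 and 94.6 TPM in the SA line, a log2 difference of 0.85 ± 0.0855 with an adjusted p of 5.49e-05. Cacnb4, the β subunit of the lethargic mouse, was 22.9, 22.6 and 19.3 TPM against 11.1, 12.7, 12.9 and 11.3 TPM (0.97 ± 0.188, adjusted p = 0.00235). Both genes separated the lines by a wide gap, and their KCl libraries did so as well, at 142 to 167 against 85.8 to 91.4 TPM for Cacng7. Cacnb2, a β subunit shared with heart, was 8, 10.4 and 9.52 TPM against 7.79, 8.35, 6.68 and 4.93 TPM (0.70 ± 0.136, adjusted p = 0.00235), with overlap at the edge. Cacng4, Cacng3 and Cacnb3 differed by 0.49, 0.75 and 0.53, with adjusted p of 0.00279, 0.00518 and 0.00522 and no overlap between the lines.

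Cacna2d1 went the other way, at 21.8, 24.1 and 19.4 TPM in the SE line and 29.5, 59, 56.9 and 37.8 TPM in the SA line (log2 -0.82 ± 0.281, adjusted p = 0.0357). Among the 4 α2δ genes Cacna2d2 was higher in the SE line (0.76, adjusted p = 0.0187). The T-type genes split without passing: Cacna1g had a difference of 1.00 (adjusted p = 0.0655), and Cacna1h one of -0.57 (adjusted p = 0.051), both without overlap. Without the wild-type libraries numbered 1 of the SA line all 3 Cav3 genes were called (Cacna1g 0.69, Cacna1h -0.75 and Cacna1i -0.995, adjusted p = 0.000681, 0.00191 and 5.4e-05), as was Scn1a (-1.12, adjusted p = 0.000884). The abundant sodium channel genes did not pass: Scn2a differed by 0.47 (adjusted p = 0.284), Scn8a by 0.50 (adjusted p = 0.276), Scn3a by 0.47 (adjusted p = 0.142) and Scn3b by 0.17 (adjusted p = 0.33). The called Nav α gene, Scn7a, was below 0.41 TPM in each library.

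**Figure D5:**
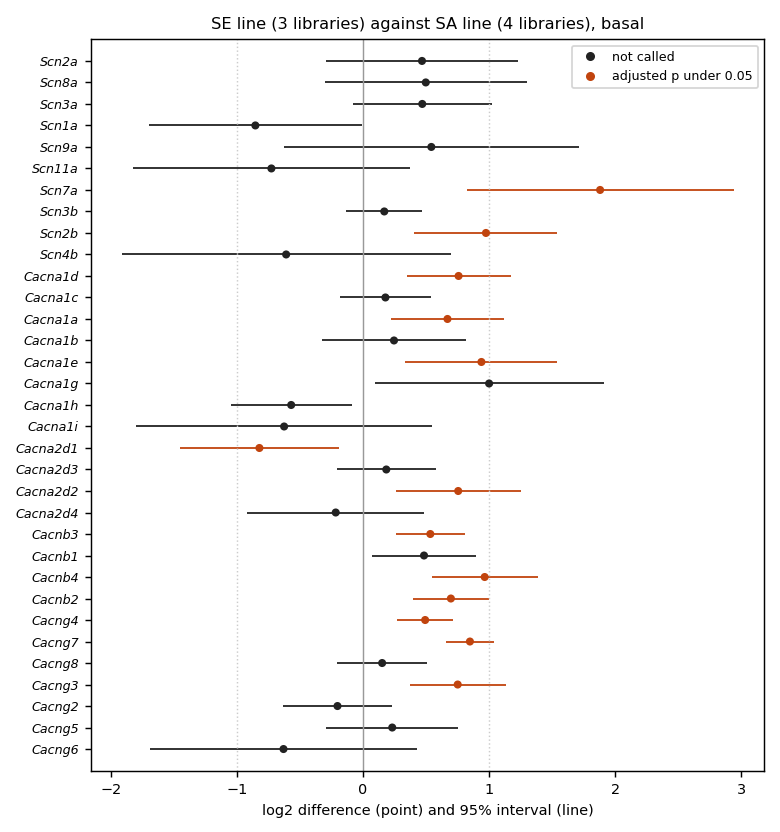
Log2 difference between the SE line and the SA line at basal for 33 of the 35 channel genes tested (points, with the 95% interval as bars; dotted lines, 2-fold either way; red, adjusted p under 0.05). The called genes lie to the right of 0 except Cacna2d1 at -0.82, and Cacng7 has the narrowest interval.

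The contrast between the lines pools knock-in and wild-type libraries. Line and everything else that differed between the 2 sets of cultures cannot be told apart in it, and other cell types moved with it. Summed glutamatergic markers were 957 to 1039 TPM in the SE line and 351 to 521 TPM in the SA line, astrocyte markers 192 to 246 against 877 to 1406 TPM, oligodendrocyte lineage markers 58.8 to 74.6 against 317 to 441 TPM, and endothelial and mural markers 17.7 to 28.4 against 181 to 766 TPM, with no overlap in any of them; Cldn5, which defines endothelium, stayed under 0.5 TPM in all libraries. Their part in the channel differences was not tested. The fit of all 14 libraries also compared the basal wild-type libraries alone, 1 of the SE line against 2 of the SA line. Neither side carried a knock-in allele, but the spread was estimated from all replicated groups, knock-ins included. In this comparison 7 of the 35 channel genes were called, beside 28.6% of all genes. All 7 were higher in the SE line: Cacna1d, Cacnb3, Cacnb4, Cacng3, Cacng4, Cacng7 and Scn2b. Without both wild-type libraries numbered 1 of the SA line 21 of the 35 were called, beside 50.6% of all genes, 15 higher and 6 lower, and they held all 13 of the original calls. Those 7 genes were called in all 14 settings tried.

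Of the partner genes at basal, 4 of 15 sodium channel partners and 9 of 25 calcium channel partners differed between the lines, beside 47.8% of all genes. Whether the shares differ was not tested. Fgf13, which binds the sodium channel's tail, was 39.2 to 42 TPM in the SE line and 70.6 to 98.1 TPM in the SA line (log2 -0.94, adjusted p = 0.000103), while Ank3, the ankyrin that anchors sodium channels at the initial segment, was higher in the SE line (0.67, adjusted p = 0.0357), as were the NALCN partners Fam155a and Unc80. Among calcium genes, the inositol trisphosphate receptors Itpr1 and Itpr2, which release stored calcium, were lower in the SE line by log2 differences of -1.85 and -2.02, as were Gem and Cachd1. Cabp1, Calm2, Rimbp2 and the ryanodine receptor Ryr3 were higher. The KCl response of the channel genes did not differ detectably between the lines. Here edgeR called 0 of 35, beside 0.152% of all genes, with 0 at an unadjusted p under 0.05 and 0 by DESeq2 or limma. The lowest p were those of Cacnb3 (0.24 ± 0.172) and Cacna1h (0.34 ± 0.298). Differences ran from -0.52 to 0.60. The 95% interval lay within 2-fold for 20 of 35 genes, so larger differences in response were not excluded for the others.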

How the data were processed

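Per the submitters' processing notes, the authors used kallisto 0.43.1 and the GRCm38 (mm10) build. They deposited estimated counts, which kallisto's model divides among transcripts, and TPM, both per transcript and summed per gene symbol; 65.6% of nonzero gene counts were not whole. No source used here states strand-specific counting, so antisense genes may not have been separated. Gene positions came from GENCODE M21: all 40 genes matched by symbol and 38 by versioned identifier.

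Estimated counts were rounded and fitted in edgeR 4.0.16 (R 4.3.3) with 8 group means, TMM scaling and filterByExpr on genotype and treatment, which kept 17732 genes and 35 channel genes. The quasi-likelihood fit had 6 residual degrees of freedom, and single libraries were assumed to vary like the other groups. Of 12 comparisons, each was adjusted by Benjamini-Hochberg over all genes tested, at 0.05, and log2 values carry standard errors. Wild-type KCl responses weighted the 3 replicate numbers of wild type equally. Levels are TPM, read as deposited; fold changes come from counts.

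Genes named were those called in a comparison (up to 6 by lowest p), the 2 with the lowest p where none was called, and the highest gene of each family; the other channel genes given with values were chosen after their values were seen. Some genes are counted in family totals but are not reported here by name. Members and lists were chosen with earlier results of these data known. Alternatives were RLE scaling, no filter, DESeq2 1.42.0, limma 3.58.1 on log2(TPM + 1), a replicate block, fits of subsets and leaving out each library. The count model was tested on simulated data.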

Additional observations from a re-analysis of the deposited data

How the results depend on the processing

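Counts of called channel genes kept their value under most alternatives; leaving out single libraries gave 0 in the KCl, genotype and response comparisons and between 10 and 17 (main value 13) for the SE line against the SA line at basal. With the replicate block, KCl over all cultures called 3 channel genes (Cacna1d higher, adjusted p = 0.00104; Cacna2d1 and Scn2a lower, adjusted p = 0.0217 and 0.0189), and KCl in SE called 2 (Cacna1d and Cacna1h, adjusted p = 0.0364 and 0.0475), among 2328 and 1024 genes called in all; the other KCl and response comparisons stayed at 0. The labels do not say what a replicate number marks, and the data did not settle it: deviations of basal and KCl libraries correlated at 0.422 in SA, 0.67 in that line's wild type and -0.0512 in SE, and those of SA and wild type at -0.306 (basal) and -0.282 (KCl). The line contrast gave 7 calls with wild-type libraries only and 21 without the wild-type libraries numbered 1 of the SA line, an alternative added after seeing the data. It also lowered the basal median log2 difference between SA and wild type to 0.0387.

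Single genes that changed sign were Cacna1d after KCl in wild type (-0.00471 without basal wild-type library 1 of the SA line, range without single libraries -0.00471 to 0.494) and the SA response difference of Cacna2d1 (0.023 without that library, 0.238 without KCl wild-type library 2, range -0.905 to 0.238); none was called in any setting, and the cause was not tested. Median log2 differences of the 35 genes that lay near 0 also crossed it: KCl over all cultures -0.12 to 0.0952, in wild type -0.292 to 0.258 and in SA -0.166 to 0.0489, SE against wild type at basal -0.0648 to 0.0249, the SA response difference -0.477 to 0.321 and the line response difference -0.226 to 0.275. Of the line calls, Cacna1a passed in 9 of 14 settings, Cacna2d1 in 8, Cacna2d2 in 10, Cacna1e in 11, and Cacnb2 and Scn7a in 13. Rem2 in wild type lost its call when the wild-type libraries were fitted alone (adjusted p = 0.17). Depth limits Scn7a, Scn9a and Cacna2d4, and 2 libraries a group limit the genotype comparisons.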
